A study of Caenorhabditis elegans with 2 samples.

Results

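Nuclear hormone receptor genes of Caenorhabditis elegans were examined for peaks of CEC-7, a chromodomain protein, in whole adult hermaphrodites. The members were the 269 protein-coding genes named nhr followed by a number in RefSeq's gene table (assembly WBcel235), out of 19971 protein-coding genes on the 6 nuclear chromosomes. The name was the only criterion. Of these members, 167 lie on chromosome V, 33 on IV, 23 on I, 23 on X, 15 on II and 8 on III. A gene was called bound if a peak of the CEC-7 chromatin immunoprecipitation (ChIP-seq) list overlapped its body or 500 bp on either side, and it took the highest score of those peaks. The series holds 1 CEC-7 ChIP library and 1 input library, both labelled replicate 2, and 1 peak list, from the ChIP library, was analysed. Both libraries came from fem-2(b245)III hermaphrodites, labelled as germline-containing young adults, kept at 20 degrees Celsius according to the series text. The growth protocol describes harvested gravid adults. The mutation is therefore shared by ChIP and input, and neither a wild-type strain nor a strain without CEC-7 was analysed here. The antibody was an affinity-purified rabbit polyclonal against CEC-7.

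Nuclear hormone receptors are transcription factors with a zinc-finger DNA-binding domain and a ligand-binding domain through which small lipophilic molecules can switch them. Nematodes carry a greatly expanded family, most of it related to vertebrate HNF4, beside a small group of receptors whose classes are shared with insects and vertebrates. In the worm these receptors control fat storage and desaturation, moulting, detoxification and larval development, many of them in the intestine and epidermis. The fem-2 gene acts in sex determination and promotes male fates, sperm included. A chromodomain is a small domain that, in several chromatin proteins, recognises histone H3 methylated on lysine.

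CEC-7 peaks were found at few nuclear hormone receptor genes. Of the 269 nhr genes, 6 had a peak within 500 bp (2.23%), and the background over the 19702 other protein-coding genes was 3495 bound genes (17.7%). The 6 were nhr-19 on II, nhr-49 and nhr-23 on I, nhr-66 and nhr-274 on IV, and nhr-44 on V. Together they were touched by 7 of the 2767 peaks of the list. If each nhr gene had the bound share of the other genes on its own chromosome, 32.3 would have been bound. These are counts from 1 library, with no replicate and no test. Peaks come from all tissues of the animal mixed, so a gene occupied weakly and a gene occupied in few cells cannot be told apart, and either may be missing from the list.

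On chromosome V, which holds most of the family, 1 of 167 nhr genes was bound (0.599%), against 400 of 4828 other protein-coding genes there (8.29%). At the share of the other V genes the number would have been 13.8. On the remaining chromosomes together, 5 of 102 nhr genes were bound (4.90%), against 3095 of 14874 other genes (20.8%) and a number of 18.4 at the chromosomes' own shares. The low count was thus not limited to V.

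Taken chromosome by chromosome, the nhr share was below that of the other genes on all 6. On I, 2 of 23 nhr genes were bound (8.70%), against 29.7% of the other genes. On II it was 1 of 15 (6.67%), against 21.4%. On IV it was 2 of 33 (6.06%), against 16.2%. Chromosome III, the richest in bound genes at 37.3% of the others, had 0 of 8 nhr genes bound. On X it was 0 of 23, but there only 0.185% of the other genes were bound, so X could hardly show a difference.

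**Figure D1:**
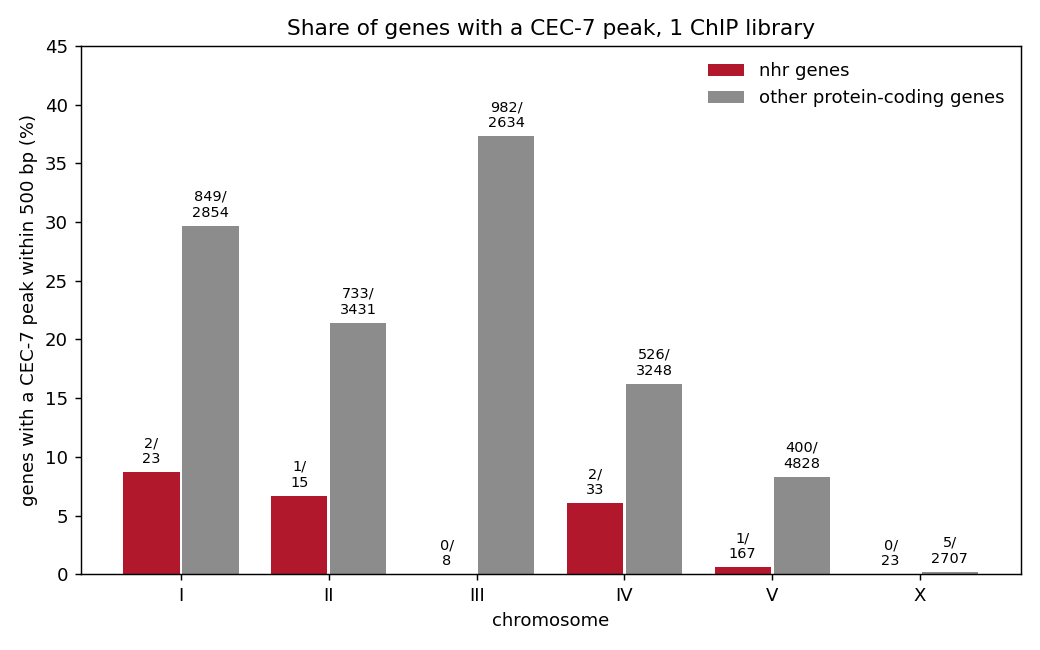
Percentage of nhr genes (red, left bar) and of other protein-coding genes (grey, right bar) with a CEC-7 peak within 500 bp, by chromosome, with the number bound over the number of genes above each bar. The red bar is the lower on every chromosome, and it is at 0 on III and X.

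The bound members differed in how much of the peak lay at the receptor gene itself, and 4 of the 6 had a peak that overlapped the gene body by more than 1 kb. Gene positions come from WBcel235 and peak positions from WS220, which differ by about 100 bp at most, so an overlap or gap below that size is not resolved. The score is the authors' own value per peak, of unstated scale, and only ranks peaks within this list.

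The nhr-49 gene, a regulator of fatty acid desaturation and beta-oxidation that works with the Mediator subunit MDT-15, had 2 peaks on chromosome I. The stronger, I 9872328 to 9874447, scored 187.11, ranked 927th of the 2767 peaks and lay wholly within the gene, covering 43.2% of its 4909 bp. It ended 0.2 kb inside one end of nhr-49, and 0.1 kb beyond that end begins inx-20, an innexin gene. The inx-20 gene was therefore called bound through the same peak. The weaker, I 9868408 to 9869783, scored 52.56 and ranked 2667th. It overlapped nhr-49 by only 0.066 kb, which is below the offset between builds, and had 0.657 kb in the neighbouring gene K10C3.5.

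The nhr-23 gene encodes the ROR/DHR3-class receptor needed for moulting. Its peak, I 7219282 to 7221999, was 2718 bp wide with a score of 100.80 (rank 1666) and crossed 1 end of the gene, with 74.2% of the peak inside. No other protein-coding gene body lay under it. Beyond that end, after a gap of 1.0 kb, comes cnnm-4 with a weaker peak in its body (score 63.05), and then swsn-9, which lies under a stronger peak (score 380.14).

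The nhr-66 gene, which acts with nhr-49 on genes of lipid metabolism, had 1 peak of 1472 bp, IV 8227612 to 8229083, with a score of 93.25 (rank 1782). The peak lay wholly within this 10272 bp gene, 1.3 kb from the nearer end, and covered 14.3% of it. The adjoining gene at that end was not bound.

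The nhr-274 gene had 1 peak of 1202 bp, IV 1641217 to 1642418, also wholly inside the gene and 2.9 kb from its nearer end. Its score of 50.25 ranked 2755th of 2767. The lowest score in the list is 50.02, so this call stands at the edge of what the caller kept.

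At the other 2 members the peak lay over neighbouring genes. The highest score of the family, 373.72 (rank 381), was at nhr-19. Its peak, II 9594891 to 9598161, did not overlap the body of nhr-19 but ended 19 bp from it. Instead it covered E02H1.5 with 42.0% of its width, E02H1.6 with 25.3%, the mitochondrial ribosomal protein gene mrpl-53 with 16.5% and parp-2 with 7.28%. A second peak, with a score of 390.82, adjoined it on the side away from nhr-19.

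The only bound member on V, nhr-44, was reached by a peak of 3017 bp at V 8958941 to 8961957 with a score of 102.95 (rank 1619). Of this peak, 99.3% lay in ttc-17 and only 0.08 kb in nhr-44, again less than the offset between builds. When each peak was given only to the gene whose window it overlapped most, nhr-44 and nhr-19 were no longer bound. The count was then 0 of 167 on V, against 5.20% of other V genes, and 4 of 102 elsewhere, against 12.8%.

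**Figure D2:**
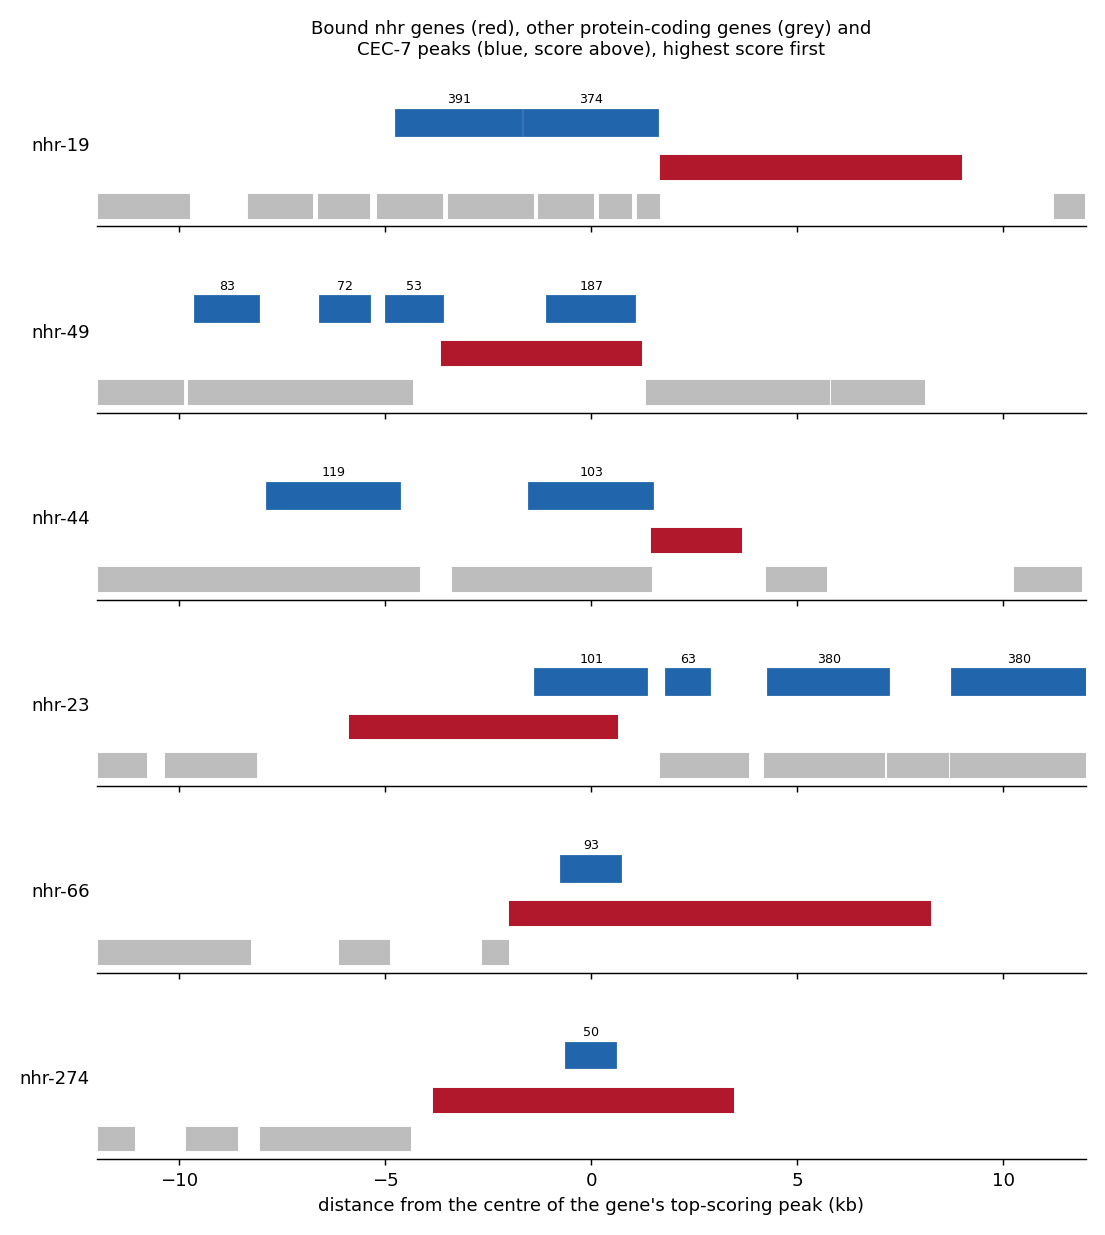
Position of the 6 bound nhr genes (red), neighbouring protein-coding genes (grey) and CEC-7 peaks (blue, with their score), in kb from the centre of the gene's top-scoring peak. Peaks lie inside nhr-49, nhr-66 and nhr-274 and across 1 end of nhr-23, while those at nhr-19 and nhr-44 lie over the grey neighbours.

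Scores at 4 of the 6 bound members were below the median of the other bound genes on their chromosome. The median top score was 100.80 over the 5 members off V, against 184.20 over the 3095 other bound genes off V (quartiles 99.39 and 361). On I, nhr-49 stood just above the median of the other bound genes (176.80) and nhr-23 below it. Both members on IV were below the 137.72 of the other bound genes there, and nhr-44 was below the 127.40 of those on V. Only nhr-19, whose peak lay over its neighbours, was far above its chromosome's median of 197.19.

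**Figure D3:**
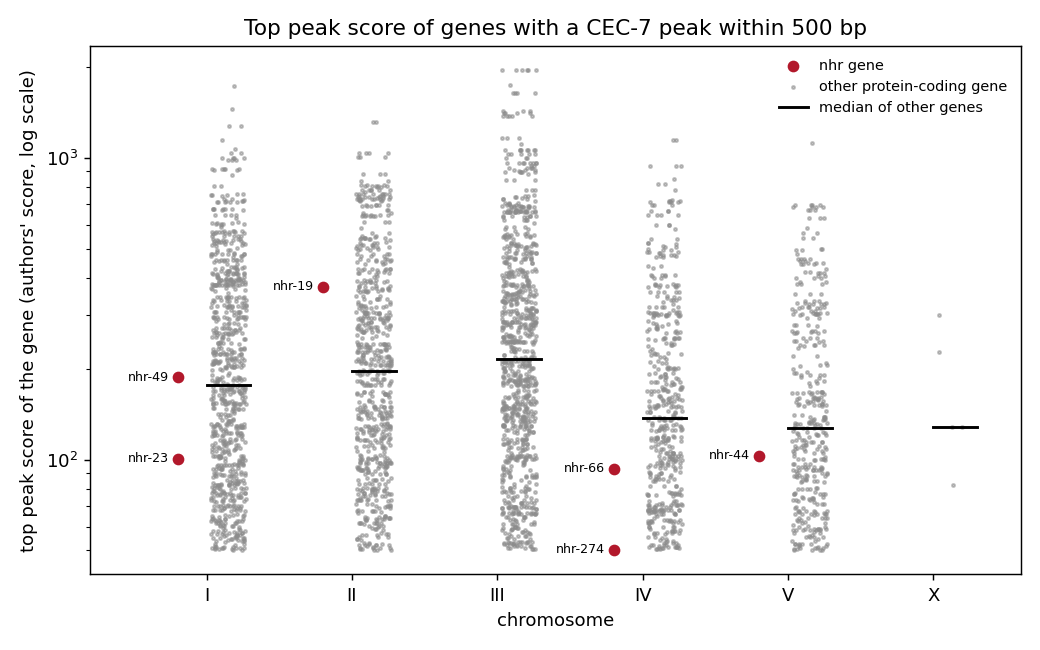
Top peak score (log axis) of each bound nhr gene (red, named) and of each other bound protein-coding gene (grey points, black line at the median) by chromosome. The points of nhr-23, nhr-66, nhr-274 and nhr-44 are below their chromosome's median line, nhr-49 is just above it and nhr-19 is well above it.

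The 263 members without a peak were usually far from one, 123 of them by over 10 to 100 kb and 109 by more than 100 kb. Medians of the distance from the gene body to the nearest peak were taken over all genes, bound ones included. They therefore also reflect the bound shares. The median was 83.0 kb over the nhr genes and 20.2 kb over the other genes, of which 17.7% were bound. On V the medians were 96.9 kb for nhr genes and 37.0 kb for others, and 78 of the 167 nhr genes (46.7%) were more than 100 kb from any peak. The contrast was wide on I, with 45.7 kb for nhr genes against 4.79 kb for others, and on III, with 25.6 kb against 2.70 kb. It was small on IV, with 18.2 kb against 15.6 kb. On X both medians exceeded 1 Mb, at 1710 kb for nhr genes and 1400 kb for others, and the nearest member there, nhr-255, was 62.5 kb away.

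Few members stood near the limit of 500 bp. The bound member farthest from its peak was nhr-19, at 19 bp, which is well inside the limit and also counted as bound with a limit of 400 bp. Just outside was nhr-2, an embryonically expressed receptor gene on I. The peak beside nhr-2, I 5814794 to 5817961 with a score of 199.09, was 513 bp away, a distance that the offset between builds could bring to either side of the limit. With a limit of 600 bp nhr-2 counted as bound. Next came nhr-21 on II, at 859 bp from a peak with a score of 124.23. A further 6 members lay between 1 and 2 kb from a peak, among them nhr-8 on IV at 1.92 kb and nhr-109 on II, 1.69 kb from a strong peak (score 716.84). Within 5 kb of a peak were 24 nhr genes (8.92%), against 30.3% of the other genes, with all chromosomes pooled. On V the shares were 3.59% and 16.2%, and on the remaining chromosomes 17.6% and 34.9%. The gap varied by chromosome. It was small on II (33.3% against 35.1%) and IV (24.2% against 30.9%). It was wide on I (17.4% against 50.5%) and III (12.5% against 58.2%).

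**Figure D4:**
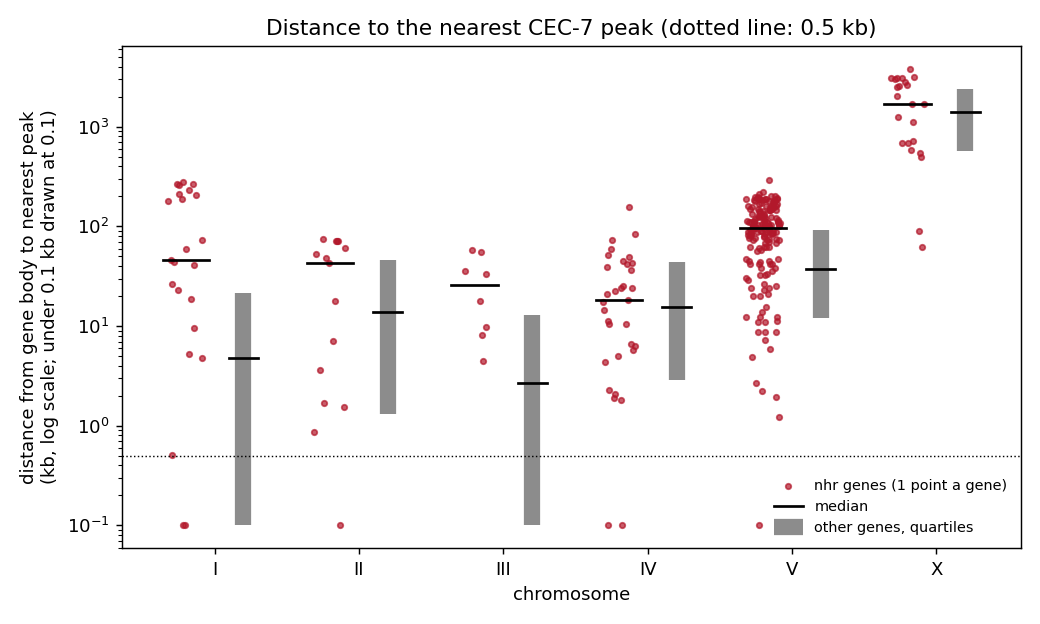
Distance from the gene body to the nearest CEC-7 peak (kb, log axis, values under 0.1 kb drawn at 0.1) for each nhr gene (red points, black line at the median) and for other protein-coding genes (grey bar from the lower to the upper quartile, black line at the median) by chromosome. The red medians are above the grey ones on all 6 chromosomes, least so on IV and X.

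Among the 11 nhr genes whose receptor classes are shared with other animals, only nhr-23 was bound, and the shares of their chromosomes add up to 1.91 genes. Nearest after it was nhr-8, a receptor of xenobiotic and sterol responses. The tailless-class gene nhr-67 was 6.27 kb from a peak, nhr-239 was 17.7 kb and the NR4A-class gene nhr-6, which acts in spermatheca development, 33.4 kb. The testicular-receptor-class gene nhr-41 lay at 36.3 kb, the E75-class gene nhr-85 at 72.7 kb and nhr-111 at 96.9 kb. The other 3 are on X. Of these, nhr-48 was 89.9 kb from a peak, the germ-cell-nuclear-factor-class gene nhr-91 492 kb, and nhr-25, the Ftz-F1/SF-1-class gene of moulting and epidermal development, 2790 kb. Outside the nhr names, 0 of 5 further receptor genes were bound, against 0.305 at the shares of their chromosomes, so this count says little. The steroid receptor gene daf-12 and the genes fax-1, sex-1 and odr-7 are on X, and unc-55, on I, was 5.09 kb from a peak.

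Of 20 nhr genes with a described physiological role, nhr-49 and nhr-66 were bound, against 3.22 at the shares of their chromosomes. Among the genes of fat metabolism and lifespan, nhr-80, which promotes fatty acid desaturation, was 58.0 kb from a peak on III although 37.3% of other genes there were bound. The nhr-13 gene, a partner of nhr-49, was 62.6 kb away and nhr-62, needed for lifespan extension by dietary restriction, 5.22 kb. The propionate-response pair also lacked a peak, with nhr-10 at 8.15 kb and nhr-68 at 4.90 kb. The nhr-114 gene, needed for fertility on some bacterial diets, was 5.91 kb from a peak. The genes nhr-69 and nhr-64 on I lay at 4.74 and 9.63 kb. Farther out were nhr-31 of the excretory cell at 18.2 kb, the hypoxia-induced nhr-57 at 38.6 kb, nhr-86 at 61.9 kb, nhr-76 at 157 kb and nhr-60 at 193 kb. The 4 on X, nhr-14, nhr-28, nhr-35 and nhr-40, were between 543 kb (nhr-28) and 2530 kb (nhr-35) away.

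All 8 members on III can be given, since III had the most bound genes. The closest to a peak was nhr-9 at 4.50 kb, followed by nhr-10 at 8.15 kb, nhr-20 at 9.71 kb and nhr-239 at 17.7 kb. The other 4, nhr-6, nhr-121, nhr-280 and nhr-80, were 33.4 to 58.0 kb away. The median of the other III genes, 2.70 kb, was below every one of these.

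Among coactivators, corepressors and genes that make or move sterol ligands, 2 of 10 were bound, against 2.17 at the shares of their chromosomes. Both are coactivators on III. The acetyltransferase gene cbp-1 lay under a wide peak of 8394 bp, III 9766322 to 9774715, with a score of 336.35 (rank 437). The Mediator subunit gene mdt-15, the partner of nhr-49, had a weak peak of 3103 bp, III 5830071 to 5833173, with a score of 61.29 (rank 2426). The DAF-12 corepressor gene din-1 was 15.3 kb from a peak. The genes of dafachronic acid synthesis and sterol handling, daf-9, daf-36, dhs-16, hsd-1, strm-1, ncr-1 and ncr-2, had no peak. The closest of them was ncr-2 at 4.09 kb.

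Of 13 genes listed as targets or reporters of pathways run by these receptors, 0 were bound, against 1.61 at the shares of their chromosomes, and 8 of the 13 are on V. The desaturase genes under nhr-49 and nhr-80 lay at 10.3 kb (fat-5), 37.6 kb (fat-6) and 26.9 kb (fat-7) from a peak, and the acyl-CoA synthetase gene acs-2 at 5.47 kb. The nearest was acdh-1, a target of nhr-10 and nhr-68, at 1.19 kb. The cytochrome P450 genes cyp-35A3, cyp-35B1 and cyp-35D1 were 149, 191 and 43.3 kb away. The distances were 2.28 kb for vha-8, 13.8 kb for hacd-1, 24.4 kb for ftn-1, 64.6 kb for smf-3 and 90.3 kb for fmo-2.

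Gene length and place on the chromosome were compared next, because long genes meet a peak more readily and peaks are unevenly spread along chromosomes. Most nhr genes lie on chromosome arms, as defined below. So do most other genes, 9159 of 14874 off V and 3071 of 4828 on V. The median length was 2273 bp for nhr genes and 1998 bp for the other genes, so the family is not short. The bound members were long, with a median of 6950 bp against 2260 bp for the unbound members. Off V, all 5 bound members were in the class of 4 kb and over. There 5 of 39 nhr genes were bound (12.8%), against 29.7% of other genes of that class. The length classes off V pool chromosomes and were not matched for X. On X, nhr genes were long (median 4321 bp, against 2497 bp for others) and only 0.185% of other genes were bound. How much of the gap in the longest class goes with X was not tested. Off V, 0 of 35 nhr genes of 2 to 4 kb and 0 of 24 of 1 to 2 kb were bound, against 22.4% and 17.4% of the other genes in those classes. On V, 1 of 82 members of 2 to 4 kb was bound (1.22%, against 11.2%), and 0 of 17 of 4 kb and over (against 19.8%).

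The chromosomes were also divided into a centre and left and right arms of equal length, taking the last annotated gene end as the approximate chromosome end. Of the 102 members off V, 71 lay on the arms and 1 of these, nhr-274, was bound (1.41%), against 16.7% of other genes there. These 71 include 19 on X, where only 5 of 1734 other arm genes were bound. In the centres 4 of 31 were bound (12.9%), against 27.4%. On V 126 of 167 members lay on the arms, with 0 bound against 6.15% of other genes, and in the centre 1 of 41 was bound (2.44%), against 211 of 1757 other genes. Taking V apart from the rest, the share of nhr genes was the lower in each of these classes. Single chromosomes did not all follow this, since in the centre of II 1 of 3 nhr genes was bound (33.3%, against 28.1% of other genes). In the centre of I the nhr share, 2 of 5, was only just below the 41.5% of other genes. In the centre of X no nhr gene and no other gene was bound. On IV 1 of 16 members on the arms was bound (6.25%, against 13.4%) and 1 of 17 in the centre (5.88%, against 20.2%).

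**Figure D5:**
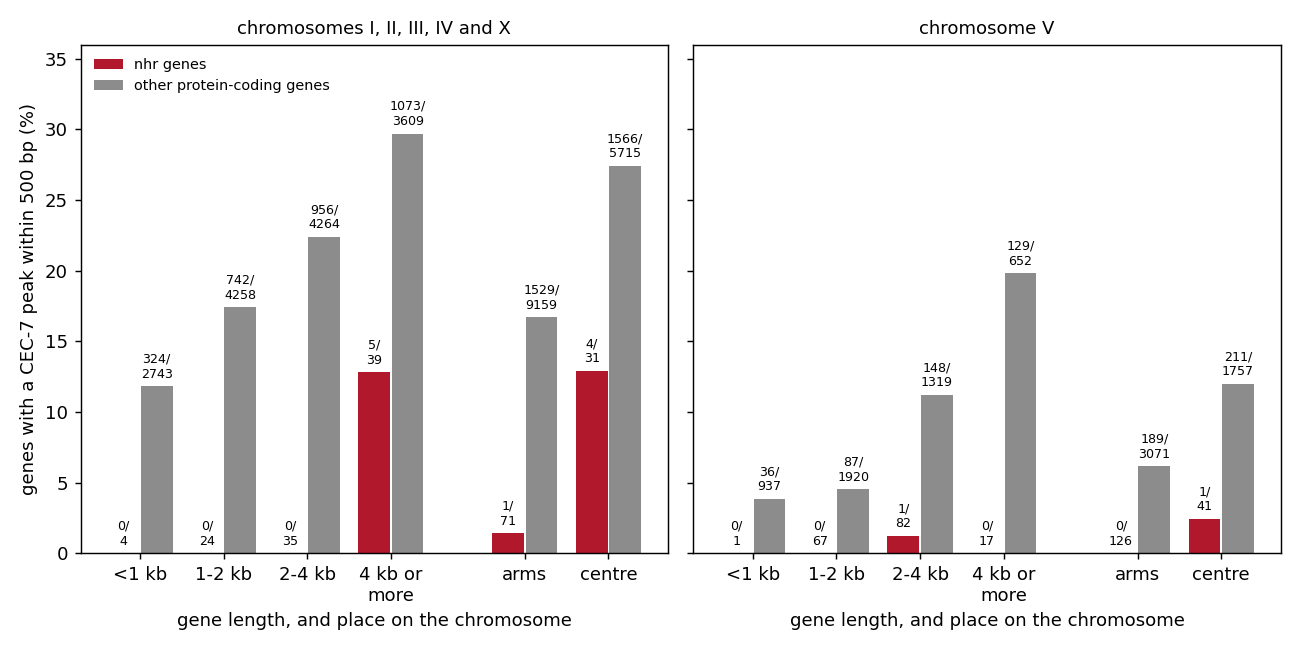
Percentage of nhr genes (red, left bars) and of other protein-coding genes (grey, right bars) with a CEC-7 peak within 500 bp, by gene length and by place on the chromosome, with the number bound over the number of genes above each bar. The left panel has chromosomes I, II, III, IV and X, where the red bars rise above 0 at 4 kb or more and in both chromosome classes. In the right panel, chromosome V, a single bound gene makes up the red bars.

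The nhr genes often lie side by side. Of the 269, 137 stood in 44 groups of adjacent nhr genes in the order of protein-coding genes, 32 of the groups being on V. The largest group held 9 members, nhr-185 to nhr-189 with nhr-157, nhr-158, nhr-159 and nhr-124, and had no peak. Of the 137 grouped members, 1 was bound, nhr-44. Of these members 107 are on V, where 8.29% of other genes were bound, and 30 elsewhere, where 20.8% were. The other 5 bound genes were among the 132 members that stood alone, 60 on V and 72 elsewhere. Grouped and single members thus differ in their chromosomes, and their counts were not compared. Members of such a group share their surroundings and are not independent of each other.

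The surroundings of the family also had lower bound shares than all other genes of V, or of the remaining chromosomes pooled. Among other protein-coding genes directly next to an nhr gene, 4 of 173 were bound on V (2.31%) and 18 of 162 elsewhere (11.1%). Within 5 genes on either side, the counts were 30 of 723 on V (4.15%) and 93 of 715 genes elsewhere. For nhr genes themselves these shares were 0.599% and 4.90%, and for all other genes 8.29% and 20.8%. The bound share was thus lowest at the nhr genes, higher at their neighbours and highest over the other genes, on V and on the remaining chromosomes alike. The other genes include these neighbours. Off V the shares pool chromosomes and were not weighted by how the neighbours are spread over them. Whether the nhr genes differ from their direct neighbours was not tested.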

How the data were processed

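Per the labels' protocols, frozen ground worms were fixed with 1% formaldehyde for 10 minutes, sonicated and immunoprecipitated, and libraries were sequenced (Illumina). BWA and build ce10 are named, per the submitters' processing notes. Per the file headers, peaks were called with MACS on WormBase WS220. For MACS version, settings, use of the input, pooling and depth, nothing was found in the labels or header. The deposited file has, for every peak, a position and a score of unstated scale by the authors, and no read counts. A caller's score and peak number rise with depth.

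Peaks were overlapped with the protein-coding genes of RefSeq's WBcel235 table. The builds differ by about 100 bp at most, gene positions are not printed, and strand was not used. Named genes were every bound nhr gene on V, the bound nhr genes elsewhere, lists of receptors, partners and targets chosen by name, and members 400 to 600 bp from a peak. Other genes are named as neighbours or examples. Members and lists were chosen with earlier results of these data known. No set test was run. The overlap calls were checked on simulated data. Computations used pandas 2.3.3 and NumPy 2.4.6 under Python 3.11.15, with SciPy 1.17.1, and figures matplotlib 3.10.9. Alternatives were windows of 0, 400, 600 and 1000 bp, the 50% of peaks with the highest score, an overlap of 200 bp, 1 gene per peak, peaks under 1000 bp apart merged, and adjacent nhr genes counted once.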

Additional observations from a re-analysis of the deposited data

How the results depend on the processing

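The share of bound nhr genes stayed below that of the other genes under every alternative in which both were computed. Off V it ran from 1.96% (50% of peaks with the highest score, other genes 13.7%) to 6.86% (window of 1000 bp, other genes 23.3%). With windows of 400 and 600 bp it was 4.90% and 5.88%. On V it was 0.599% except for 0.0% with the 50% of peaks with the highest score (other genes 4.18%), 0.0% with 1 gene per peak, and 1.09% with adjacent nhr genes counted once. The median top score off V was 97.03 with the gene body alone and with 1 gene per peak, against 100.80 as reported. It was 143.96 at 600 bp, 124.23 at 1000 bp and 280.42 with the higher-scoring 50% of peaks, because the bound members change. It stayed below that of the other bound genes in each of these. With no bound member on V under 2 of the alternatives, the score there has no value. A window around the gene start was not run, since strand was not used. No paired analysis was possible because there is a single peak list. Sites weaker than the caller's limit are not in the list.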

Other observations

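Other families of transcription factor genes, chosen after the nhr counts were seen, also had few peaks. Of 124 homeobox (ceh), basic helix-loop-helix (hlh), T-box (tbx), forkhead (fkh) and ETS (ets) genes, 8 had a peak within 500 bp (6.45%). The background was 17.7% over all protein-coding genes other than nhr genes, these 124 included. Off V the share was 4.90% for nhr genes and 6.48% for these families (7 of 108). The families differed there, with 6 of 52 ceh genes (11.5%) and 1 of 9 fkh genes (11.1%) bound. Off V, 0 of 23 hlh, 0 of 19 tbx and 0 of 5 ets genes were bound. Shares of these families were not weighted by chromosome. Among other protein-coding genes the bound share ran from 0.185% on X to 37.3% on III, so family members on X would lower them. The bound ones included ceh-38 with a score of 450.52, ceh-44 with 353.56 and ets-6 with 327.40, and 0 of 25 hlh and 0 of 19 tbx genes were bound. Chemoreceptor genes (taken by the sr and str family names), another expanded family centred on V, had 6 of 888 bound on V (0.676%), where nhr genes had 1 of 167. With chemoreceptor genes left out, the other genes of V were bound at 10.0%. Among 14 pseudogenes named nhr, 9 of them on V, 0 were bound. The share was only 3.62% over 1907 other pseudogenes, so a count of 0 among 14 says little. None of these differences was tested.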
